A study of Drosophila melanogaster with 2 samples.

Results

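Cells of the eye-brain complex of the *Drosophila* larva were separated by their *roX* RNA. A cell was called roX-high when *roX1* and *roX2* together made up at least 5 of every 10000 UMIs (unique molecular identifiers, random tags by which copies of the same molecule are counted as 1). A cell was called roX-0 when it had no UMI of either RNA and at least 3000 UMIs in all. Of 33552 cells, 17255 were roX-high and 5249 were roX-0, 22504 together. The remaining cells were used in neither group: 4514 had a *roX* sum above 0 and below 5 per 10000, and 6534 had no *roX* UMI but fewer than 3000 UMIs. The groups were compared over all cells and in 3 classes set by single genes, namely eye cells (with *eya*, without *sim*), neuroblasts (with *wor* and *mira*) and neurons (with *nSyb* and *brp*).

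In *Drosophila*, males carry a single X chromosome and females a pair. The MSL (male-specific lethal) complex, made of the proteins Msl-1, Msl-2, Msl-3, Mof and Mle and of the non-coding RNAs *roX1* and *roX2*, coats the male X and raises its transcription, which is called dosage compensation. In females the RNA-binding protein Sxl blocks the production of Msl-2, so that the complex does not form, and *roX* RNA is therefore widely used to tell male cells from female cells.

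The study compared a control, genotype *mirr*>OreR, with *mirr*>ND-42 RNAi BL28894 larvae, in which the *mirr* driver directs silencing of *ND-42*, a subunit of mitochondrial complex I, to a part of the eye disc. Animals of both genotypes were kept for 120 h at 25 °C, and brains were dissociated together with the eye discs. Neither label gives the sex of the larvae, and complexes of several larvae, which can be of both sexes, were dissociated together. The tables deposited for the 2 genotypes are identical and were used once, as 1 library of open genotype, and the cell numbers stated by the study match the table for neither genotype. No value is therefore given for a genotype. The methods speak of replicates for the single-cell work, but nothing in the table or labels separates them, and whether the cells come from more than 1 library was not tested. Used as 1 library, the table gives no replicates, cells are not replicates either, and no p-value was computed. Intervals in parentheses are exact 95% intervals that cover counting error only. A level is the pooled UMIs of a gene per 10000 UMIs of the group, and a ratio is the level in roX-high over that in roX-0 cells. The table holds 243468253 UMIs, between 500 and 333220 per cell with a median of 4092, and no cell barcode occurs more than once.

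The *roX* values that chose the cells are given as a description. *roX1*, on X from 3857230 to 3862697 on the minus strand of the Release 6 assembly, was the more abundant, with 264323 UMIs over all cells against 42215 for *roX2*, on X from 11579065 to 11580432 on the plus strand. In roX-high cells the sum had a median of 22.1 per 10000, quartiles of 12.6 and 37.0, and a maximum of 512. The lowest roX-high cell had 5.0025 per 10000 and the highest cell left outside had 4.9975. The limit lies in a filled range, with 633 cells from 5 to under 6 and 752 cells from 4 to under 5. At the other limit, 482 roX-0 cells had 3000 to under 3300 UMIs, and 587 cells without *roX* had 2700 to under 3000. The share of cells without a *roX* UMI fell with depth, from 60.2% of cells with 500 to under 1000 UMIs over 35.0% from 3000 to under 5000 to 1.31% of the 306 cells with at least 50000 UMIs. The share with a sum between 0 and 5 rose over the same range from 0% to 28.4%, and that of roX-high cells from 39.8% to 70.3%. Deep cells without any *roX* RNA were thus rare, and 5585 roX-high cells had fewer than 3000 UMIs. Scrublet called 16.5% of roX-high, 9.89% of roX-0 and 15.6% of the cells in between as doublets. The part of free RNA or doublets in the low sums was not tested.

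**Figure D1:**
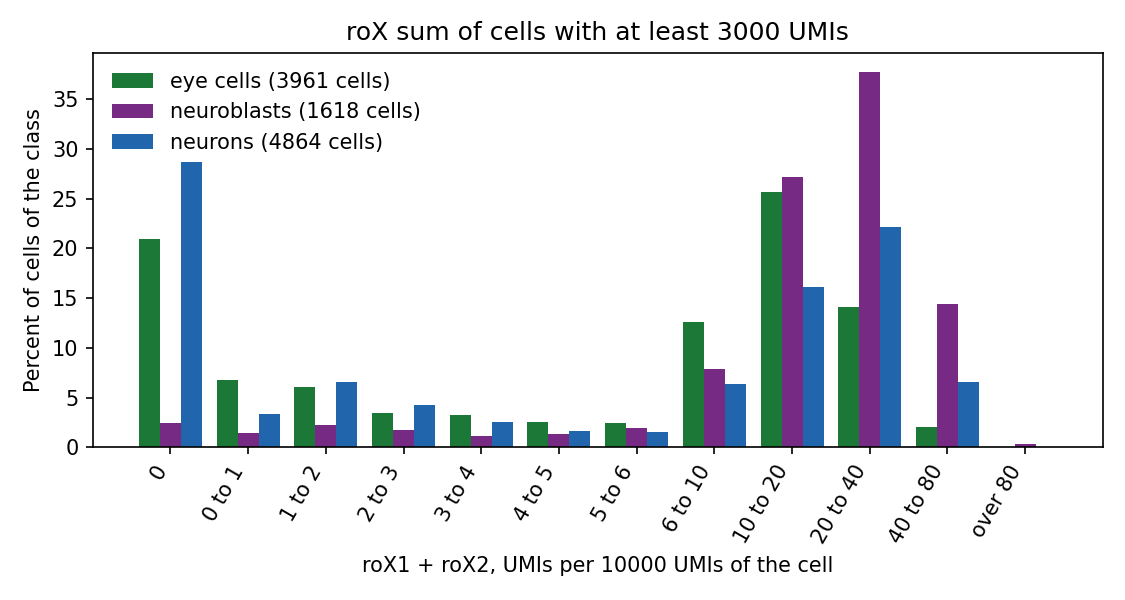
Percent of the cells of each class, among cells with at least 3000 UMIs (3961 eye cells, 1618 neuroblasts, 4864 neurons), by the sum of *roX1* and *roX2* per 10000 UMIs, in bins of unequal width. At 0 are 21.0% of eye cells and 28.7% of neurons but 2.41% of neuroblasts; bins widen to the right, so their heights are not densities.

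The share of roX-high cells among called cells set neuroblasts apart from every other class. It was 74.7% (73.2 to 76.2) of called eye cells, with 2452 roX-high and 830 roX-0 cells, and 69.5% (68.1 to 70.8) of called neurons, with 3176 and 1395 cells. In narrower classes it lay between 66.7% in neurons with *VGlut*, the glutamate transporter of synaptic vesicles, and 79.7% in eye cells with *Optix*, an eye field transcription factor. In neuroblasts, the stem cells of the larval brain, it was 97.4% (96.5 to 98.2), with 1489 roX-high and only 39 roX-0 cells. Their interval is far from that of every other class. With a minimum of 3000 UMIs for both groups the shares were 73.1% in eye cells, 64.8% in neurons and 97.4% in neuroblasts. Neuroblasts made up 8.63% of all roX-high cells but 0.743% of roX-0 cells. The groups can thus not be read as male and female cells in neuroblasts, and they are called by their rule throughout. The neuroblast comparison rests on 39 roX-0 cells with 487173 UMIs and is given for completeness.

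*roX1* and *roX2* also differed in proportion between the classes. In roX-high neuroblasts *roX1* stood at 22.3 per 10000 (22.1 to 22.4), above neurons at 16.7 (16.6 to 16.8) and eye cells at 13.1 (13.0 to 13.2). *roX2* was instead lowest in neuroblasts and highest in neurons. It stood at 0.902 per 10000 (0.869 to 0.935) in neuroblasts, 2.04 (2.001 to 2.08) in eye cells and 3.44 (3.38 to 3.50) in neurons. *roX2* was thus 3.89% of the *roX* UMIs of roX-high neuroblasts, against 13.5% in eye cells, 17.1% in neurons, 14.8% in glia (cells with *repo*, without *nSyb*) and 15.0% in hemocytes (cells with *Hml*). Among roX-high cells with at least 3000 UMIs, 44.8% of neuroblasts had no *roX2* UMI, compared with 16.0% of eye cells and 11.6% of neurons, although roX-high neuroblasts were the deepest, with a median of 14088 UMIs against 11614 in eye cells and 6342 in neurons. Nearly all roX-high cells of this depth had *roX1*: the share without it was 0% in neuroblasts, 0.0444% in eye cells and 0.234% in neurons.

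**Figure D2:**
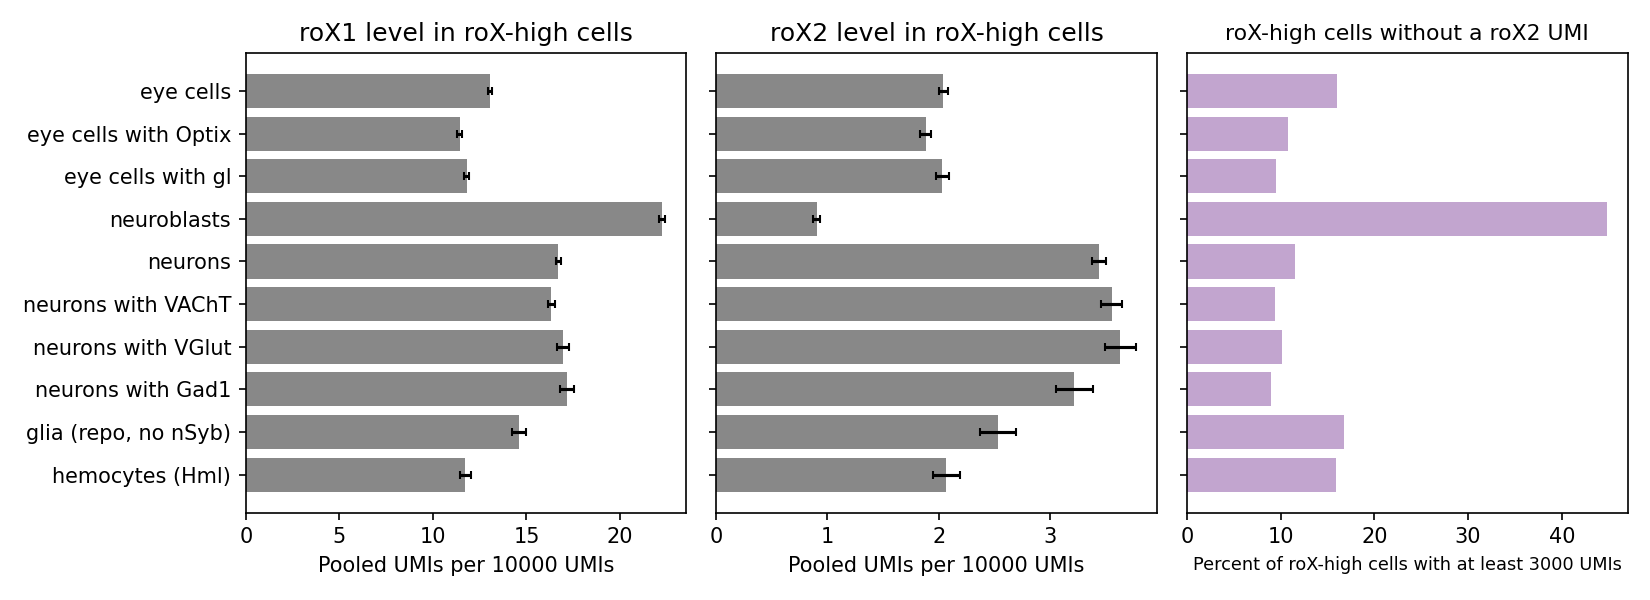
Pooled level of *roX1* (left) and *roX2* (middle) in roX-high cells of 10 classes, in UMIs per 10000 UMIs with exact 95% counting intervals, and the percent of roX-high cells with at least 3000 UMIs that had no *roX2* UMI (right). Neuroblasts have the most *roX1*, 22.3 per 10000, the least *roX2*, 0.902 per 10000, and the most cells without *roX2*, 44.8%.

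The cells with *roX1* but no *roX2* had more neuroblast RNA than the cells with both, neuroblasts of the class defined by *wor* and *mira* included. Of cells with at least 3000 UMIs, 2980 had *roX1* of at least 5 per 10000 and no *roX2*, and 7431 had *roX1* of at least 5 and *roX2* of at least 1 per 10000. The summed level of the 4 neuroblast markers was 5.97 per 10000 in the former and 1.81 in the latter, a ratio of 3.30 (3.22 to 3.37). Each of the 4 was higher without *roX2*: *mira*, which carries cell fate determinants to the daughter cell, 4.26-fold, *wor*, a Snail family transcription factor, 4.02-fold, *ase*, a proneural gene, 3.66-fold and *dpn*, a Hes family repressor, 1.78-fold. The neuronal genes *nSyb* and *brp*, which encode proteins of the presynaptic terminal, were lower, at ratios of 0.513 and 0.396, whereas *elav*, which marks young neurons too, was higher at 1.28. Markers of eye cells were lower in sum at 0.605, although *ey* was higher at 1.56 (1.45 to 1.67), and those of hemocytes were lower at 0.409. Glia markers were higher in sum at 1.34, with *nrv2* at 1.38 but *repo* at 0.592 and *moody* at 0.325.

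A readout that the rule did not use was *pre-rRNA:CR45847*, a ribosomal RNA precursor unit. In *D. melanogaster* the ribosomal DNA lies in arrays on X and on Y, and the gene table places this unit on both, so that it was not counted as X-linked. Its copies are nearly identical, and how reads were shared between them is uncertain. It was among the 10 leading RNAs that were higher in roX-high cells of all 3 classes. In eye cells it had 3207 UMIs in roX-high and 17 in roX-0 cells, levels of 0.703 and 0.0207 per 10000, a ratio of 34.0 (21.2 to 58.4). In neurons it had 2420 and 27 UMIs, a ratio of 26.2 (17.9 to 39.8), and in neuroblasts 1810 and 2 UMIs, a ratio of 13.9 (3.84 to 115). The ratio stayed between 30.1 and 43.5 in eye cells and between 21.3 and 43.3 in neurons under each of the 9 other settings tried. The cell with the most UMIs gave 6.40% of them in neuroblasts and less in eye cells and neurons. The related unit *pre-rRNA:CR45845*, also placed on both chromosomes, was far more abundant and was not higher in roX-high cells. Its ratio was 0.843 (0.820 to 0.868) in eye cells and 0.941 (0.914 to 0.969) in neurons.

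Split further by *roX1* and *roX2*, the share of cells with a *pre-rRNA:CR45847* UMI was highest where both RNAs were found. Among cells with at least 3000 UMIs and no *roX*, 1.81% of eye cells (1.01 to 2.96) and 1.79% of neurons (1.16 to 2.63) had one. Where *roX1* was at least 5 per 10000 and *roX2* at least 1, the share was 51.6% of eye cells (49.1 to 54.2), 54.5% of neuroblasts (50.1 to 58.9) and 43.8% of neurons (41.6 to 46.0). The intervals of eye cells and neuroblasts overlapped, and that of neurons lay below both. All roX-high cells had median depths of 11614, 14088 and 6342 UMIs in eye cells, neuroblasts and neurons. The part of depth in these shares was not tested. Where *roX1* was at least 5 per 10000 but no *roX2* UMI was found, the share was 28.1% in eye cells (23.5 to 33.0), 14.5% in neuroblasts (11.9 to 17.4) and 19.2% in neurons (14.9 to 24.1). Neuroblasts with *roX1* alone thus had a lower share than neuroblasts with both RNAs, at median depths of 11305 and 13164 UMIs. Where *roX1* was below 5 per 10000 and no *roX2* was found, the share was 6.39%, 4.35% and 4.01% in the 3 classes. It was low as well in the 347 cells with *roX2* of at least 1 per 10000 but no *roX1*, at 6.92% (4.48 to 10.1).

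**Figure D3:**
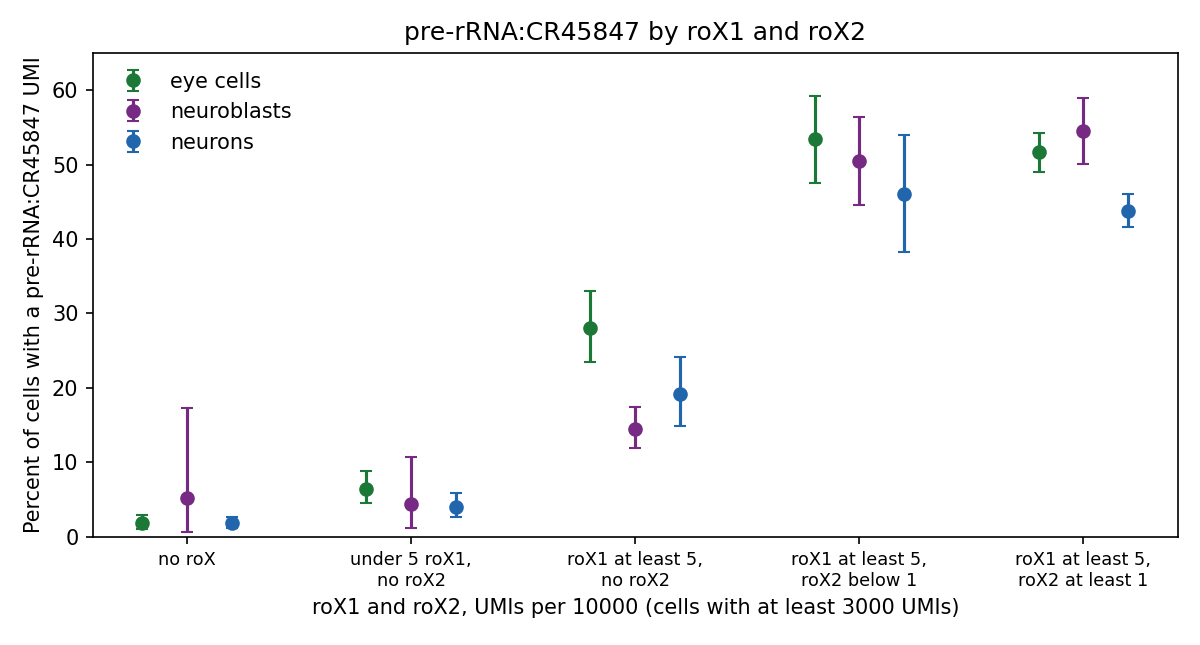
Percent of cells with at least 1 UMI of *pre-rRNA:CR45847* in eye cells, neuroblasts and neurons with at least 3000 UMIs, by their *roX1* and *roX2* per 10000 UMIs; bars are exact 95% binomial intervals. The share is 1.79% to 5.13% without *roX*, 14.5% to 28.1% with *roX1* alone and 43.8% to 54.5% with *roX1* and at least 1 *roX2* per 10000.

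Since nearly all neuroblasts had *roX1*, they were also split by *roX2* alone, a split chosen after the data had been seen. Of 1618 neuroblasts with at least 3000 UMIs, 515 had at least 1 *roX2* per 10000 and 780 had none. Of the latter, 649 were roX-high. Neuroblasts with some *roX2* but below 1 per 10000 were left out. Median depths were 13161 UMIs with *roX2* and 11320 without, and *roX1* had a ratio of 1.27 (1.25 to 1.29). *roX2* is part of this split and *pre-rRNA:CR45847* is not. The latter stood at 0.833 per 10000 with *roX2* and 0.220 without, a ratio of 3.79 (3.31 to 4.34). Of the MSL genes, *msl-2* had a ratio of 1.68 (1.37 to 2.07) and *mle* of 1.22 (1.05 to 1.42), *msl-1* was lower with *roX2* at 0.867 (0.764 to 0.983), and *msl-3* at 1.32 and *mof* at 1.07 had intervals that held 1. Of the sex determination genes, *fru* had a ratio of 1.77 (1.58 to 2.001), *dsx* of 3.62 (2.64 to 5.04) and *Sxl* of 0.834 (0.790 to 0.879). *tra* was level at 1.04 (0.873 to 1.24). The X-linked share of UMIs was 15.4% with *roX2* and 16.0% without, a ratio of 0.958 (0.956 to 0.960). The neuroblast markers were lower with *roX2*, from 0.578 for *mira* to 0.754 for *wor*, and the neuronal markers *nSyb* and *brp* higher, at 1.95 and 1.86. *roX2* thus moved with the mixture of neuroblast and neuronal RNA as well, and the part of that mixture in the other differences was not tested.

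The X chromosome gave a slightly smaller share of RNA in roX-high than in roX-0 cells. The share was computed over genes placed on X and the autosomes, without the *roX* genes. Pooled over all cells it was 15.4% in roX-high and 16.2% in roX-0 cells, a ratio of 0.953 (0.952 to 0.954). In neurons it was 15.7% and 16.7%, a ratio of 0.944 (0.942 to 0.946). In eye cells it was 15.4% and 15.8%, a ratio of 0.971 (0.969 to 0.972), and in neuroblasts 15.7% and 15.9%, a ratio of 0.989 (0.982 to 0.996). Ratios were alike in neurons with *VAChT* (0.941), *VGlut* (0.949) and *Gad1* (0.941), genes of cholinergic, glutamatergic and GABAergic neurons. Glia had the lowest ratio, 0.932 (0.927 to 0.937). Hemocytes, with 259 roX-high and 107 roX-0 cells, were the exception with a ratio of 1.010 (1.005 to 1.015), but there too the median over cells was lower in roX-high cells, 15.0% against 15.5%. The difference was small beside the spread between cells: in neurons the medians over cells were 15.7% and 16.6%, with quartiles of 14.9% and 16.5% in roX-high and 15.9% and 17.4% in roX-0 cells. The ranges between quartiles overlapped in all classes.

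**Figure D4:**
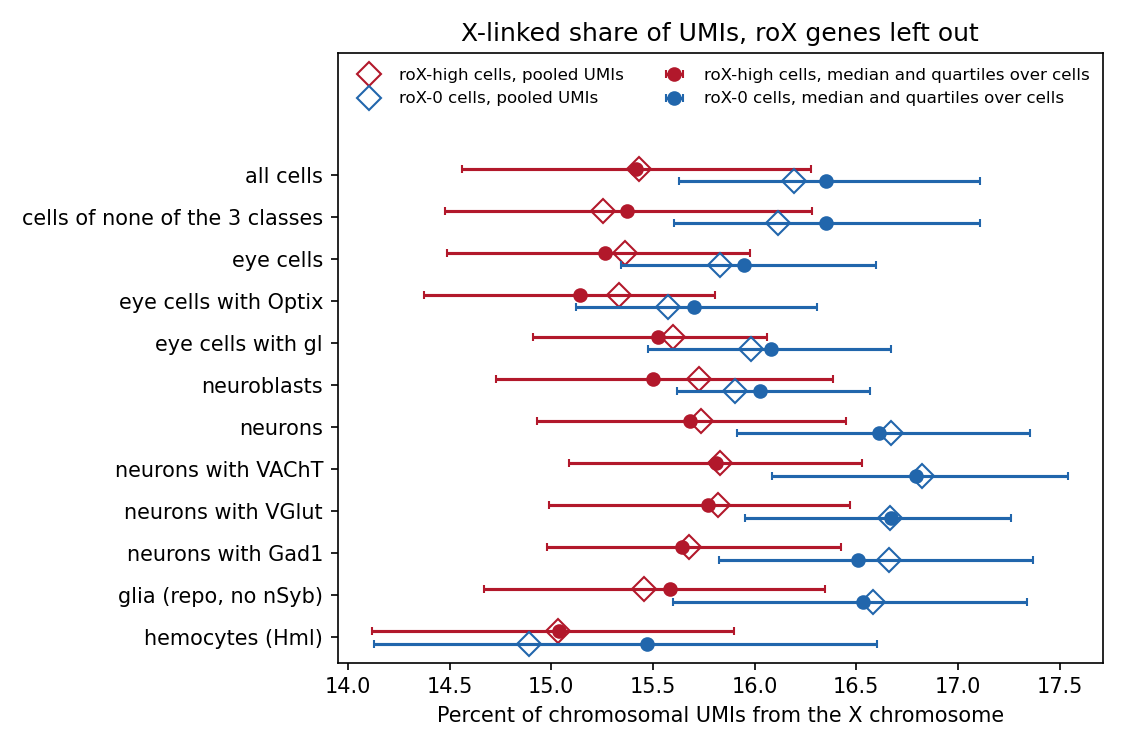
Percent of the UMIs of genes on X and autosomes that came from X, without *roX1* and *roX2*, for roX-high (red) and roX-0 (blue) cells of 12 classes; points and bars are medians and quartiles over cells, diamonds pooled UMIs. The roX-high median is the lower in every class shown, by less than the distance between quartiles, and only in hemocytes is the pooled share higher in roX-high cells.

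Gene by gene, X-linked genes were shifted down against autosomal genes in eye cells, neurons and neuroblasts. Among genes with at least 100 UMIs over both groups, the median log2 ratio in eye cells was -0.04 over 1334 X-linked genes and 0.05 over 6393 autosomal genes. In neurons it was -0.07 over 1339 and 0.03 over 6432 genes, and in neuroblasts -0.01 over 1208 and 0.08 over 5740 genes. The X-linked median was thus lower than the autosomal by 0.09 in eye cells, 0.09 in neurons and 0.08 in neuroblasts on the log2 scale. The distance varied more among narrower classes, with medians of -0.15 on X and 0.01 on autosomes in neurons with *Gad1* and of 0.01 and 0.07 in eye cells with *Optix*. A ratio below 1 was found for 54.6% of X-linked and 40.6% of autosomal genes in eye cells, and for 54.9% and 47.4% in neurons. Genes with an interval below 1 in both eye cells and neurons were 18.1% of X-linked genes (234 of 1292) and 8.09% of autosomal genes (498 of 6156), whereas those with an interval above 1 in both were 12.7% and 15.7%. In eye cells and neurons the small chromosome 4 was shifted in the same direction. Its median log2 ratio was -0.05 over 76 genes in eye cells and -0.16 over 81 genes in neurons, where 70.4% of its genes had a ratio below 1. In neuroblasts it was 0.02 over 71 genes. Chromosome 4 and the autosomes both had -0.03 in cells of none of the 3 classes, and 0.23 and 0.21 in hemocytes. On the arms 2L, 2R, 3L and 3R the medians lay between 0.03 and 0.06 in eye cells and reached at most 0.05 in neurons. In neuroblasts the median of 3L was 0.01, near the -0.01 of X, whereas 2L, 2R and 3R lay between 0.09 and 0.11. Genes are not replicates, and no test of these shifts was made.

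The cell type markers show how far the groups differed in composition, and these values stand beside every gene result that follows. Within eye cells the 4 neuroblast markers summed to 2.10 per 10000 in roX-high and 1.05 in roX-0 cells, a ratio of 1.99 (1.85 to 2.13), and within neurons to 1.71 and 0.343, a ratio of 4.99 (4.47 to 5.58). The neuron markers had ratios of 0.892 in eye cells, 0.678 in neurons and 0.582 in neuroblasts. The 7 eye markers had a ratio of 0.833 in eye cells and 1.25 in neurons, and *eya* itself, which sets the eye class, had 0.657 in eye cells. Hemocyte markers had ratios of 2.13 in eye cells and 0.686 in neurons, and *NimC1* had at most 3 UMIs in a group of either class. Glia markers had pooled ratios of 0.963 (0.912 to 1.02) in eye cells and 1.87 (1.73 to 2.02) in neurons, and lamina markers of 0.702 and 1.28. In neurons only 1 of the 3 glia markers had an interval above 1, and their ratios ran from 0.986 to 1.93. Cells could also carry more than 1 class, and most of these were roX-high. So were 76.7% of all called cells and 97.4% of called neuroblasts. Of 294 cells that were eye cells and neuroblasts, 265 were roX-high and 3 roX-0. The numbers were 413 and 97 of 636 cells that were eye cells and neurons. They were 177 and 5 of 201 cells that were neuroblasts and neurons. The gonads were not dissected. Of their markers, *vas*, the germ line helicase, reached no more than 0.0167 per 10000, whereas the 3 gonadal soma markers summed to 0.488 and 0.924 in eye cells, a ratio of 0.528 (0.486 to 0.574), and to 0.661 and 1.01 in neurons, a ratio of 0.651 (0.604 to 0.702). Nearly all of that sum was *Wnt4*, a Wnt ligand that other tissues use too. The part of these mixtures in the ratios of single genes was not tested; the values without cells of more than 1 class are given where they matter.

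Across all genes tested, 9.34% (738 of 7904) differed at least 1.5-fold in either direction in eye cells and 28.0% (2230 of 7958) in neurons. In neuroblasts, with few roX-0 UMIs, 38.3% (2703 of 7066) did, and over all cells 17.5% (1675 of 9559). These numbers depended on the cells used. In neurons the count was 795 without cells of more than 1 class, 631 with cells thinned to 3000 UMIs and 1173 for the mean over cells; in eye cells it was 433 without cells of more than 1 class and 335 with thinned cells.

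The subunits of the MSL complex were higher in roX-high eye cells and neurons, *mle* excepted. In eye cells 4 of the 5 genes had an interval above 1, against 22.3% of all genes tested, and none below; in neurons 4 had one above, against 32.4%, and 1 below. Their median log2 ratio was 0.37 in both classes, beside 0.04 over all genes in eye cells and 0.01 in neurons. *msl-2*, the subunit that Sxl represses, had levels of 0.153 and 0.0889 per 10000 in eye cells, a ratio of 1.72 (1.35 to 2.22), and of 0.162 and 0.122 in neurons, a ratio of 1.33 (1.09 to 1.63). *msl-3*, which binds a histone mark of transcribed genes, had ratios of 1.60 (1.09 to 2.41) and 1.44 (1.03 to 2.05). *msl-1*, the scaffold of the complex, had 1.21 (1.04 to 1.41) and 1.29 (1.13 to 1.48), and *mof*, its histone acetyltransferase, 1.29 (1.01 to 1.67) and 1.26 (1.004 to 1.59). *mle*, the RNA helicase that loads *roX* RNA, had 1.06 (0.916 to 1.22) in eye cells and 0.855 (0.767 to 0.955) in neurons, where the mean over cells gave 1.01. In neuroblasts the 5 ratios lay between 1.16 and 1.67 and every interval held 1, while 10.4% of all genes tested there had an interval above 1 and 10.1% one below. The levels were low, between 0.0365 and 0.444 per 10000 in eye cells and neurons. Of the cofactors, *Clamp*, a zinc finger protein that binds the entry sites of the complex on X, had ratios of 0.997 and 1.15 in eye cells and neurons and *JIL-1*, a histone kinase, 1.003 and 1.04. *Unr*, which with Sxl represses *msl-2* translation, was at 0.970 (0.946 to 0.996) and 0.795 (0.781 to 0.811).

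Of 13 sex determination genes tested in each class, *Sxl* and *tra* were the lowest in eye cells and neurons. In eye cells 2 genes had an interval above 1 and 3 below, where 15.4% of all genes were below; in neurons 2 were above and 3 below, where 30.4% of all genes were below. *Sxl*, the X-linked switch gene of female development, stood at 2.10 per 10000 in roX-high and 2.86 in roX-0 eye cells, a ratio of 0.735 (0.702 to 0.769). In neurons it stood at 2.89 and 4.83, a ratio of 0.599 (0.579 to 0.620), and in neuroblasts at 2.19 and 3.39, a ratio of 0.647 (0.554 to 0.760). *Sxl* RNA was thus plentiful in both groups; the sex-specific form of the transcript cannot be told from these counts. *tra*, the splicing factor that Sxl controls, had ratios of 0.771 (0.676 to 0.880), 0.650 (0.589 to 0.718) and 0.482 (0.313 to 0.784) in eye cells, neurons and neuroblasts, although it lies on 3L. Its partner *tra2* had 1.17 in eye cells and 1.04 in neurons. Of the targets, *fru*, a transcription factor of the male nervous system, had a ratio of 1.33 (1.22 to 1.44) in eye cells and 1.59 (1.44 to 1.76) in neurons, but 1.02 for the mean over neurons and 1.05 in thinned neurons. *dsx*, whose male and female forms direct sexual development, had 0.802 (0.702 to 0.918) in eye cells and 2.03 (1.60 to 2.62) in neurons, where it was 1.33 without cells of more than 1 class. The splicing and m6A factors *vir*, *fl(2)d*, *nito*, *snf*, *Mettl3* and *Mettl14* had ratios between 0.945 and 1.10 in eye cells and neurons, and each interval held 1. In neuroblasts *Mettl3* was as low as *tra*, at 0.482 (0.335 to 0.719), and *fl(2)d* was at 0.737 (0.573 to 0.963). The intervals of the others held 1 there.

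**Figure D5:**
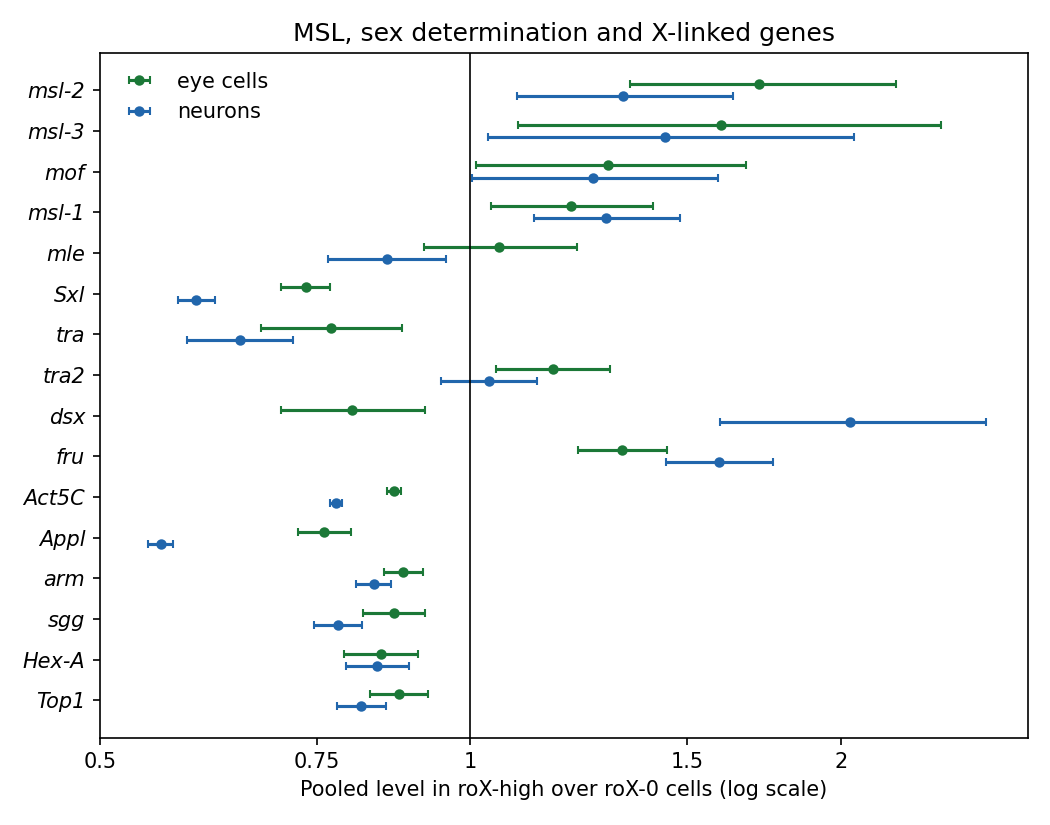
Ratio of the pooled level in roX-high over roX-0 cells, on a log axis, for 5 MSL genes, 5 sex determination genes and 6 X-linked genes in eye cells (green) and neurons (blue), with exact 95% counting intervals. *msl-1*, *msl-2*, *msl-3* and *mof* lie above 1 and *Sxl*, *tra* and the 6 X-linked genes below 1 in both classes, whereas *dsx* is on opposite sides. The 6 X-linked genes were picked from the list of 21 well-known ones. Of that list, 3 genes in eye cells and 7 in neurons had a ratio above 1, and none of these is shown.

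X and Y genes with known roles in the count of X chromosomes or in spermatogenesis were scarce. *sisA*, an X signal element of the early embryo, had no UMI in eye cells or neurons. *run* and *sc*, X signal elements that also pattern discs and neurons later, went opposite ways in the classes: *run* had ratios of 1.78 and 0.784 in eye cells and neurons, *sc* of 0.595 and 1.92. Of 12 Y-linked genes looked for, *FDY* was the only one in the table. It had 1 UMI in eye cells, and the 4 features placed on Y alone had 17 UMIs among all 33552 cells, too few for a comparison.

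Of 21 well-known X-linked genes, 11 had an interval below 1 in eye cells and 13 in neurons, against 15.4% and 30.4% of all genes tested, and 2 and 5 had one above. The gene table did not place *RpII215*; the other members are on X. The median log2 ratio of the list was -0.16 in eye cells and -0.25 in neurons. The cytoskeletal actin *Act5C* was the most abundant, with 28.9 and 33.3 per 10000 in roX-high and roX-0 eye cells, a ratio of 0.867 (0.855 to 0.878), and a ratio of 0.778 (0.770 to 0.787) in neurons. *arm*, the fly β-catenin, had ratios of 0.882 and 0.835, the kinase *sgg* 0.867 and 0.780, the hexokinase *Hex-A* 0.846 and 0.840 and the topoisomerase *Top1* 0.874 and 0.816 in eye cells and neurons. The neuronal genes *Appl*, the fly amyloid precursor protein, and *para*, a sodium channel, were lower still, with 0.761 and 0.560 for *Appl* and 0.744 and 0.645 for *para*, in the direction of the neuron markers on autosomes. *Zw*, the first enzyme of the pentose phosphate pathway, stood out in the other direction, with 1.72 (1.24 to 2.46) in eye cells and 4.04 (2.25 to 7.98) in neurons on 39 and 12 UMIs in roX-0 cells. *N*, the Notch receptor, which is active in neural stem cells, had 0.837 (0.816 to 0.859) in eye cells but 2.51 (2.39 to 2.64) in neurons, and 4.41 there without called doublets. The eye colour transporter *w* was level in eye cells at 0.996 (0.952 to 1.04) and higher in neurons at 1.497 (1.41 to 1.59).

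In eye cells and neurons, ribosomal protein genes were not lower on X than on autosomes, whereas nuclear respiratory chain genes were slightly lower. The 14 ribosomal protein genes on X had a pooled ratio of 0.994 in eye cells and those on autosomes 0.984; in neurons both were higher in roX-high cells, at 1.16. The nuclear genes of the respiratory chain had 1.05 on X and 1.08 on autosomes in eye cells, and 1.01 and 1.03 in neurons. Transcripts of the mitochondrial genome were lower, at 0.904 and 0.945. Heat shock genes, which respond to dissociation, summed to 491 and 540 per 10000 in eye cells, a ratio of 0.911, and had a ratio of 0.988 in neurons. The 20 genes next to *roX1* had a pooled ratio of 1.01 (0.994 to 1.03) in eye cells and 0.963 (0.946 to 0.980) in neurons. The 20 next to *roX2* had 1.11 (1.07 to 1.14) in eye cells and 1.15 (1.11 to 1.18) in neurons. In neuroblasts they had 1.28 (1.15 to 1.43). Their pooled level was thus higher in roX-high cells, in contrast to X as a whole. In eye cells 8 of the 15 tested had an interval above 1 and 1 below, against 22.3% and 15.4% of all genes. In neurons 7 of 14 were above and 2 below, against 32.4% and 30.4%. In neuroblasts 4 of 13 were above and 2 below, against 10.4% and 10.1%. Single genes were split there, with ratios above and below 1 for 8 and 6 genes in neurons and 7 and 6 in neuroblasts.

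Genes that differed alike in the 3 classes were few. An interval above 1 in each was found for 6.13% (424 of 6912) of genes and one below 1 in each for 3.23% (223). Of X-linked genes 6.59% were below 1 in each, against 1.998% to 3.17% on the arms 2L, 2R, 3L and 3R. On chromosome 4 the share was 4.23% (3 of 71). Besides *pre-rRNA:CR45847*, the leading higher RNAs were *lncRNA:CR31386*, *CG9993*, *CG14545*, *Pex7*, *CG13305*, *CG32625*, *Ilp7*, *lncRNA:CR45242* and *lncRNA:cherub*. *Pex7*, a peroxisomal import receptor, had ratios of 19.3 (12.0 to 33.1) in eye cells and 9.85 (6.93 to 14.5) in neurons. *lncRNA:cherub*, a non-coding RNA known from neuroblasts, was by far the most abundant of them, at 164 and 55.4 per 10000 in neuroblasts, 78.1 and 16.7 in eye cells, a ratio of 4.69 (4.61 to 4.77), and 81.2 and 34.0 in neurons, a ratio of 2.39 (2.36 to 2.42). In roX-0 neuroblasts *lncRNA:CR31386*, *CG9993*, *CG14545* and *Ilp7* had 0 UMIs, *Pex7* and *CG32625* 1 and *CG13305* and *pre-rRNA:CR45847* 2. They passed the minimum of 100 UMIs there through roX-high cells alone, and their neuroblast ratios rest on these few counts. Of the 10 leading RNAs, 8 went the other way in neuroblasts split by *roX2* alone and *pre-rRNA:CR45847* and *Ilp7* did not. There *Pex7* had a ratio of 0.213, *lncRNA:CR31386* of 0.125, *CG9993* of 0.163, *CG13305* of 0.221 and *lncRNA:cherub* of 0.546, all lower with *roX2*, like the neuroblast markers. *Ilp7*, an insulin-like peptide of few neurons, owed 96% of its UMIs in eye cells to 1 cell, and its ratio turned to 0.414 in eye cells and 0.203 in neurons without called doublets.

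The leading lower genes in the 3 classes were *CG46448*, *dpr13*, *dati*, *CG43901*, *lncRNA:CR31451*, *amon*, *dpr21*, *side-III*, *fred* and *Syn*. Several are known from differentiated neurons: *Syn* encodes the vesicle protein synapsin, *amon* the convertase that matures neuropeptides, and *dpr13* and *dpr21* immunoglobulin proteins of synaptic partner recognition. *CG46448* had ratios of 0.369 (0.330 to 0.414) in eye cells and 0.461 (0.440 to 0.483) in neurons, and *dati*, a zinc finger gene on chromosome 4, of 0.573 (0.508 to 0.648) and 0.478 (0.455 to 0.502). *lncRNA:CR31451* was the most abundant, with 4.16 and 8.19 per 10000 in neurons, a ratio of 0.508 (0.494 to 0.522). *CG43901*, the only one of the 10 on X, had 0.617 (0.537 to 0.711) and 0.504 (0.474 to 0.537). *Syn*, *dpr13* and *side-III* were at 0.612, 0.578 and 0.610 in pooled neurons but at 1.05, 1.02 and 1.05 for the mean over cells, so that their direction in neurons depended on how cells were weighted. In neuroblasts split by *roX2* alone, 5 of the 10 had an interval above 1, opposite to their direction here, from 1.30 for *dati* to 2.53 for *dpr21*, and the intervals of the other 5 held 1.

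The most extreme ratios of a class often came from a single cell. In eye cells the neuropeptide gene *Pdf* had a ratio of 42.8 and 97% of its UMIs in 1 cell, *CG3301* 83.9 and 99%, and *Trh*, an enzyme of serotonin synthesis, 0.0117 and 93%. In neurons *lncRNA:CR44832*, on X, had a ratio of 0.00589 with 91% of its UMIs in 1 cell, *CG12239* 0.0232 with 87%, *jhamt* 89.8 with 97% and the neuropeptide gene *Crz* 57.9 with 97%. *AstC*, another neuropeptide gene, was among the lowest in both classes at 0.0178 and 0.0545, with 81% and 69% of its UMIs in 1 cell. *CG14545* was an exception among the highest in eye cells, at 50.6 (9.01 to 2005) on 281 and 1 UMIs, with 9% from its top cell. Among the lowest in neuroblasts were *Ance*, a peptidase, at 0.0609 and *Idgf4*, a chitinase-like growth factor, at 0.0606, which had ratios of 1.51 and 2.97 and of 1.76 and 4.46 in eye cells and neurons. All 83 *Idgf4* UMIs of roX-0 neuroblasts came from 1 cell, and the 525 *Ance* UMIs from 7. A single neuroblast held 19.9% of the *Ance* UMIs of both groups together, and how evenly the 7 cells shared theirs was not tested.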

How the data were processed

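Single cells of eye-brain complexes were sequenced by the authors with the 10x system. According to the labels and methods, reads were mapped and UMIs were counted with Cell Ranger, and Seurat was used on the counts. The authors deposited 1 value per cell and feature on a natural log scale: ln(x + 1), where x is the number of UMIs scaled to 10000 per cell. This was read from the values of the table, which has 33552 cells and 15902 features. Filters on cells are not given in the sources used here. Exponentiation and division by the smallest nonzero value of a cell returned whole numbers for 100% of the values, at a tolerance of 0.01, and these were taken as UMIs.

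Features were placed on chromosomes by symbol (13307) or by a unique synonym (552) in the RefSeq gene table of the Release 6 assembly, the genome release that the methods name for mapping. Another 26 features were not matched, and 2017 transposable elements were set aside. Pooled UMIs of roX-high and roX-0 cells were compared per gene where both groups together had at least 100 UMIs. Ratios have exact conditional binomial intervals and shares Clopper-Pearson intervals, both at 95% and for counting error only. A factor of 1.5 in either direction was counted as different. The scripts, run in Python 3.11.15 with scipy 1.17.1, were tested on simulated data. Doublets were called with Scrublet in scanpy 1.11.5 and kept, except in 1 alternative.

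The members, gene lists and classes were chosen with earlier results of these data known. Named genes are members of the lists, the 10 RNAs in each direction with intervals on 1 side of 1 in all 3 classes, ranked by their smallest log2 ratio (a gene at 0 in 1 class by its other classes), the 5 highest and lowest of a class, and genes on Y. The alternatives were *roX* sums of 2 or 10, a minimum of 3000 UMIs for roX-high or 5000 for roX-0 cells, cells thinned to 3000 UMIs, the mean over cells, cells without doublets or of 1 class only, all features as denominator, and gene minimums of 20 or 500 UMIs. Splits that use *roX2* and narrower classes were added after the data had been seen. Total RNA per cell cannot be told from shares of UMIs. Other experiments of the study were not analysed here.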

Additional observations from a re-analysis of the deposited data

How the results depend on the processing

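No paired analysis was possible because the table was used as 1 library and its cells carry no replicate number. The X-linked share of UMIs had a ratio below 1 under every setting in all cells, eye cells, neuroblasts and neurons, and its intervals are so narrow that most settings moved it beyond counting error. With roX-high cells from 10 per 10000 the ratio was 0.952 over all cells and 0.941 in neurons, and from 2 per 10000 it was 0.957, 0.974 in eye cells and 0.948 in neurons. With roX-0 cells from 5000 UMIs (2898 cells) it was 0.959 over all cells and 0.973 in eye cells. Thinned cells gave 0.937, 0.953, 0.965 and 0.941 in all cells, eye cells, neuroblasts and neurons, and the mean over cells 0.942, 0.953, 0.965 and 0.940. Without called doublets it was 0.9498, 0.967 in eye cells and 0.940 in neurons, and in cells of 1 class 0.951, 0.961 and 0.940. With all features as denominator it was 0.951 over all cells. Where roX-high cells also had *roX2* it was 0.948, 0.966 in neuroblasts and 0.941 in neurons, and in neuroblasts split by *roX2* alone 0.958. In narrower classes it was 0.984 with *Optix*, 0.976 with *gl*, 0.941 with *VAChT*, 0.949 with *VGlut*, 0.941 with *Gad1*, 0.932 in glia and 1.010 in hemocytes, the only reversal.

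The median of X-linked minus autosomal genes was negative under every setting, and moved most over all cells, to -0.063 with roX-0 cells from 5000 UMIs. The roX-high share with 3000 UMIs in both groups was 69.0% over all cells, 73.1% in eye cells and 64.8% in neurons.

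Counts of genes past 1.5-fold depended on the setting. In thinned cells, where fewer genes passed the minimum, they were 1088, 335, 1375 and 631 in all cells, eye cells, neuroblasts and neurons. The mean over cells gave 1173 in neurons, and cells of 1 class gave 433 in eye cells and 795 in neurons. Also requiring *roX2* gave 820 over all cells and 1367 in neuroblasts, and the split by *roX2* alone 1400. A gene minimum of 20 UMIs gave 2756, 1657 and 4196 in all cells, eye cells and neuroblasts, and one of 500 UMIs 1116, 289, 1273 and 1323 in the 4 sets. The cause was not tested where cells were chosen or weighted otherwise.

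Among named genes, *elav* in eye cells turned to 1.03 with roX-high cells from 10 per 10000 and to 1.06 with roX-0 cells from 5000 UMIs. For the mean over cells, *Syn* turned to 1.01 in eye cells and 1.05 in neurons, and in neurons *Imp* to 1.002, *dpr13* to 1.02, *mle* to 1.01 and *side-III* to 1.05. *Ilp7* turned to 0.414 and 0.203 in eye cells and neurons without doublets, to 0.531 and 0.285 in cells of 1 class and to 0.669 in eye cells when *roX2* was required, all on at most 5 UMIs a group. The other named genes that were recomputed kept their side of 1 wherever their interval excluded it. The neuroblast values are limited by the number of roX-0 cells, 39.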
